A study of Drosophila melanogaster with 266 samples.

Results

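Dopamine neurons of the protocerebral anterior medial (PAM) cluster of the Drosophila brain were profiled with 6 split-GAL4 driver lines whose libraries the authors class as sub-optimal in quality. They are PAM_2 (line MB196B), PAM_5 (MB315C), PAM_6 (MB042B), PAM_7 (MB043C), PAM_8 (MB441B) and PAM_9 (MB063B), with 2 libraries each, and were chosen by their labels and by their absence from the authors' table of modelled libraries, not by expression. The 12 PAM libraries are part of 47 sub-optimal libraries from 24 drivers, among 266 libraries in all. Each line was compared with the 5 others, and the 6 together with the 18 non-PAM drivers (35 libraries) of the sub-optimal class. Control libraries (16) and dissected tissue (8) were left out, and the 195 libraries of the authors' expression model entered no test.

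In every group a driver line expressed the nuclear tag UNC84-2XGFP, from the reporter 10XUAS_UNC84_attP2 in all but the head muscle driver, and tagged nuclei of adult heads were captured from pooled heads by tandem affinity purification (TAPIN). Flies were kept in a light and dark cycle, were collected in the later part of the light phase, and their sexes were not sorted. The PAM lines differ in the mushroom body compartments that their neurons innervate. PAM_2 covers β'2a, γ3, γ4 and γ5 with a type shared by γ4 and γ1γ2, PAM_6 covers β'2m, γ3, γ4 and γ5, PAM_5 covers γ5, PAM_8 covers γ3, PAM_7 covers α1 and PAM_9 covers β1. The targets of PAM_2 and PAM_6 therefore overlap with those of PAM_5 and PAM_8. The non-PAM drivers were CCAP, Dm12, Dsk, Ilp2, KC_apbp_ap, KC_apbp_m, Lat, LC10bc, LC10d, lLNv, LPTC_HS.VS, MBON_bp1, MBON_g1pedc, Muscles_Head, NPF, PB_6, Pdf and R7_Rh3. By their driver type label 5 of these are broad drivers, so the non-PAM group mixes types of driver. A further 3 PAM lines that passed the authors' quality control, PAM_1 (β'2a), PAM_3 (β1 and β2) and PAM_4 (γ4 and the type shared by γ4 and γ1γ2), are given as values beside the results, with 6 libraries together.

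PAM neurons release dopamine onto the axons of Kenyon cells, the intrinsic neurons of the mushroom body, and are known for signalling reward during olfactory learning. Dopamine is made from tyrosine by tyrosine hydroxylase (ple) and a decarboxylase (Ddc), is loaded into vesicles by Vmat and is taken back up by DAT. Each compartment of the mushroom body lobes receives its own types of dopamine neuron, so lines for different compartments label different, partly overlapping sets of cells.

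Relative abundance is given as TPM, the share of transcripts scaled by length, over 13931 coding genes of nuclear RNA. Read counts were not analysed here, so the depth behind a TPM is unknown, and the spread between libraries is the error that could be measured. The 12 PAM libraries had 7397 to 9115 genes above 0 TPM, and replicates of a line correlated with a Pearson r of 0.839 to 0.884 across genes, against 0.876 to 0.920 in PAM_1, PAM_3 and PAM_4. A TPM of 0 is not proof of absence at this quality: of 84 ribosomal protein genes, which every cell uses, 30 were listed at 0 in at least 1 PAM library, 6 to 15 in each. The nuclear tag stood at 4073 to 12880 TPM in PAM libraries, and its driver means averaged 7423 TPM in PAM against 3543 TPM in non-PAM drivers (exact permutation test over drivers, two-sided, adjusted p = 0.0463 over 4 measures), a call that was lost without PAM_2 (difference of 3212 TPM, adjusted p = 0.165), PAM_5 (3952 TPM, 0.0823) or PAM_6 (2899 TPM, 0.175). By library the median tag level was 5917 TPM in PAM and 2514 TPM in non-PAM. It was 3911 TPM in the 21 non-PAM libraries outside the broad, head muscle and R7_Rh3 drivers, and the part of driver type was not tested. Driver means of genes detected were 8343 ± 418 in PAM and 7774 ± 1102 in non-PAM (SD, n = 6 and 18 drivers, exact permutation p = 0.227).

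The label of the lines was checked first against genes of dopamine neurons. Vmat had 4945 to 11109 TPM (median 8658) in the 12 PAM libraries, against 4.35 to 1105 TPM (median 62.5) in the 35 non-PAM libraries. DAT had 1206 to 3568 TPM (median 1570) in PAM libraries, against 0 to 437 TPM (median 6.85) in non-PAM libraries. For both genes every PAM library lay above every non-PAM library, with log2 fold changes of 7.09 ± 0.63 for Vmat (SE, limma on 6 against 18 driver means, adjusted p = 3.7e-09) and 7.99 ± 0.88 for DAT (adjusted p = 3.2e-07). Tyrosine hydroxylase, ple, had 246 to 897 TPM (median 667) in PAM libraries, against 0 to 1074 TPM (median 15.3) in non-PAM libraries, where the highest value was that of a Lat library (log2 fold change 5.15 ± 0.84, adjusted p = 0.00033). The same Lat library also had the highest non-PAM Vmat. Ddc had 89.6 to 949 TPM (median 495) in PAM libraries, against 6.97 to 638 TPM (median 91.2) in non-PAM libraries, and its call (2.29 ± 0.53, adjusted p = 0.016) was lost without PAM_2, PAM_6 or PAM_8, with an adjusted p of up to 0.0878.

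**Figure D1:**
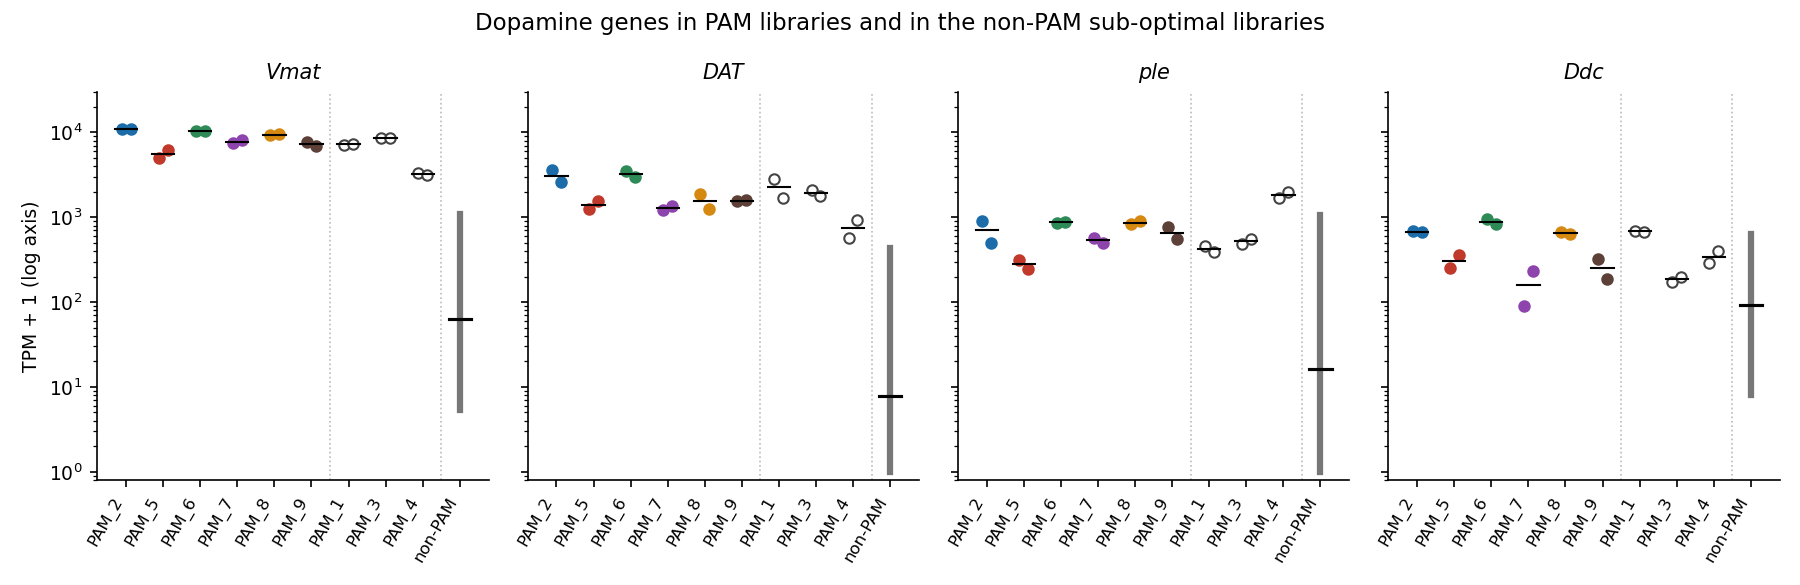
Abundance of Vmat, DAT, ple and Ddc as TPM + 1 on a log axis: filled points are the 2 libraries of each sub-optimal PAM line, open points those of PAM_1, PAM_3 and PAM_4, short lines their means, and the grey bar spans the lowest to the highest of the 35 non-PAM libraries with its median as a line. All 12 PAM libraries lie above the highest non-PAM library for Vmat (1105 TPM) and DAT (437 TPM), while ple and Ddc overlap with it.

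Of the 8 genes listed for dopamine synthesis and transport, these 4 were the ones called, and the list's median log2 fold change was 2.07, against 0.21 over all genes tested. The 4 not called included Pu, the GTP cyclohydrolase that makes the cofactor of tyrosine hydroxylase, with 9.23 to 197 TPM (median 54.1) in PAM and 0.24 to 150 TPM (median 32.7) in non-PAM libraries. Markers of other transmitters were present at unequal levels in the PAM libraries. VGlut, the vesicular glutamate transporter, reached 115.5 TPM in PAM libraries, VAChT, the vesicular acetylcholine transporter, reached 134 TPM and Gad1, which makes GABA, reached 36.1 TPM. By the authors' model these genes have levels of 1636, 665 and 1366 TPM when on. The vesicular GABA transporter VGAT had 110 to 323 TPM (median 197) in PAM libraries, against 0.82 to 366 TPM (median 187) in non-PAM libraries, near the model's on level of 215 TPM. Tbh, which makes octopamine from tyramine, was above its on level of 54.6 TPM in several lines, with 32.2 to 171 TPM in the PAM libraries outside PAM_8 and 9.1 and 3.31 TPM in PAM_8, and Tdc2, which makes tyramine, had 0 to 86.6 TPM, with an on level of 9.39 TPM. ChAT, the enzyme that makes acetylcholine, was the 1 gene of 13 tested that was called, lower at 1.03 to 17.8 TPM in PAM, against 1.53 to 199 TPM in non-PAM libraries (-2.94 ± 0.69, adjusted p = 0.018), and this call was lost without PAM_5, PAM_6 or PAM_7 (adjusted p of up to 0.0653).

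Markers of other cells were present in the PAM libraries. The glial list of 12 genes summed to 289 to 772 TPM in PAM libraries, against 197 to 3674 TPM in non-PAM libraries, with its nuclear factor repo at a median of 0.095 TPM in PAM. The 18 muscle genes summed to 1151 to 1804 TPM in PAM, against 742 to 93471 TPM in non-PAM, and the 16 photoreceptor genes to 1444 to 3555 TPM in PAM, against 1157 to 33548 TPM in non-PAM libraries. The 10 fat body and hemolymph genes summed to 3101 to 13877 TPM (median 8564) in PAM and 1125 to 52117 TPM (median 10089) in non-PAM libraries, beside 6905 to 16209 TPM for the dopamine list in PAM. Yp1, a yolk protein gene, was the most abundant member in at least the PAM_2, PAM_5 and PAM_9 libraries, and Fbp1 and Fbp2 were at 0 in every PAM library. The 8 Kenyon cell genes summed to 5397 to 7485 TPM (median 6263) in PAM and 1795 to 20619 TPM (median 2902) in non-PAM libraries, of which ey, a defining factor, had a median of 4.18 TPM in PAM. The median log2 fold change of the Kenyon cell list was -0.53, against 0.21 over all genes tested, so its typical gene was not higher in PAM. None of 61 tested genes of these lists was called by limma between PAM and non-PAM, 6 had an unadjusted p below 0.05 (1 higher and 5 lower in PAM), and their part in the results below was not tested. In bulk samples fewer cells of a type and less RNA per cell cannot be told apart.

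Across all genes, 133 of 10269 tested (1.3%) differed between PAM and non-PAM drivers, where a gene was called at a Benjamini-Hochberg adjusted p below 0.05 in limma. Of these, 114 (1.11%) were higher and 19 (0.185%) lower in PAM, and 1316 genes had an unadjusted p below 0.05. The median gene stood 0.21 higher in PAM on the log2 scale, an offset that quantile normalisation moved by -0.14, and every gene named here kept its direction under that scaling. For 7 of the genes called higher (0.0682% of those tested) every PAM library lay above every non-PAM library, and 5 of the called genes had no non-PAM library at 10 TPM or more. How many genes that were not called lay apart in this way was not counted. Without the PAM_2 driver the count was 79 and without PAM_6 it was 85, and taking each library as independent would have given 488.

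Of 95 listed transcription factors tested, 6 were higher and 1 lower, at a list median of -0.53 on the log2 scale. Fer2, a basic helix-loop-helix factor needed for the development of PAM neurons, had 95.4 to 711 TPM (median 331) in PAM libraries, against a median of 0.49 TPM in non-PAM libraries (log2 fold change 6.30 ± 0.97, adjusted p = 0.00016). Its groups overlapped, with the highest non-PAM value of 579 TPM in an lLNv library. The zinc finger factor erm had 69.3 to 521 TPM (median 182) in PAM, against 0 to 54.4 TPM (median 0.62) in non-PAM libraries (6.14 ± 0.65, adjusted p = 2e-07). The homeobox gene scro was the most abundant of the factors that separated the groups, at 1809 to 4118 TPM (median 2645) in PAM, against 1.68 to 1534 TPM (median 76.2) in non-PAM libraries (5.05 ± 0.64, adjusted p = 5.9e-06). pdm3, a POU homeodomain factor, was also higher (3.92 ± 0.80, adjusted p = 0.0046) but ranged over 15.5 to 806 TPM within PAM, since both PAM_5 libraries were low. The remaining factors called higher were the homeobox genes pros, at 4111 to 10153 TPM in PAM against a median of 914 TPM in non-PAM libraries (2.67 ± 0.57), and hth, at 2795 to 6617 TPM in PAM against a median of 1541 TPM (1.52 ± 0.32). These 6 calls held whichever driver or library was left out. mamo, a zinc finger factor, was lower in PAM, with 36.5 to 1569 TPM (median 119), against 137 to 14153 TPM (median 1226) in non-PAM libraries, a call (-3.05 ± 0.68, adjusted p = 0.011) that was lost without PAM_2, PAM_5 or PAM_6 (adjusted p of up to 0.0714).

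Cell surface genes of neuronal recognition were also among the genes called. All gene lists were chosen with earlier results of these data known, so counts within them, here and for single lines, are a description only. Over all genes tested 1.3% were called, and the median log2 fold change was 0.21. DIP-delta, an immunoglobulin receptor of the DIP family that binds dpr proteins, had 56.6 to 1185 TPM (median 617) in PAM, against 0 to 337 TPM (median 9.94) in non-PAM libraries (5.17 ± 0.78, adjusted p = 0.00011). With dpr4 (2.71 ± 0.58, adjusted p = 0.008) it was 1 of 2 called among 30 DIP and dpr genes, whose median log2 fold change was 0.94. Of 59 other adhesion and guidance genes 5 were called, all higher, at a list median of 0.91. They were the leucine-rich repeat genes kek1 and Con and the 3 members of the beat-V group, which encode immunoglobulin proteins. kek1 had 1066 to 2308 TPM in PAM, against 26.3 to 1050 TPM in non-PAM libraries, so its groups did not overlap (2.93 ± 0.57, adjusted p = 0.0027). beat-Vc had 30.1 to 281 TPM (median 104) in PAM, against 0 to 121 TPM (median 3.36) in non-PAM libraries (4.28 ± 0.79, adjusted p = 0.0015).

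Some receptors for modulators were called, where the share called over all genes tested was 1.3%. DopEcR, a receptor for dopamine and ecdysone, was lower in PAM, at 108 to 873 TPM (median 377), against 473 to 9090 TPM (median 3755) in non-PAM libraries (-3.30 ± 0.48, adjusted p = 5.7e-05). It was the 1 gene of 4 dopamine receptors called. Of the other 3, the D1-like receptor gene Dop1R1 had 26.1 to 682 TPM in PAM against a median of 150 TPM in non-PAM libraries, the D2-like receptor gene Dop2R had 223 to 696 TPM against a median of 106 TPM, and Dop1R2 had at most 8.5 TPM in PAM. Among 38 neuropeptide receptors 3 were higher: CCHa1-R, at 2.04 to 79.8 TPM in PAM against at most 4.79 TPM in non-PAM libraries (3.56 ± 0.49, adjusted p = 3e-05), held without any 1 driver, while Dh44-R1 and RYa-R did not (adjusted p of up to 0.203 and 0.0969). None of 12 serotonin, octopamine and tyramine receptor genes was called by limma, with 2 at an unadjusted p below 0.05. Ac78C, an adenylyl cyclase, was also higher (3.36 ± 0.73, adjusted p = 0.0091). Dat, the N-acetyltransferase of dopamine and other monoamines and not the transporter DAT, was lower, at 0 to 14.1 TPM in PAM against a median of 37.1 TPM in non-PAM libraries (-3.38 ± 0.68, adjusted p = 0.0042).

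Several of the most changed genes lie inside other genes. CG13332 (7.22 ± 0.63, adjusted p = 3.4e-09) and CG13331 (5.38 ± 0.58, adjusted p = 2e-07) lie on the plus strand within the span of Vmat, which is on the minus strand of chromosome arm 2R from 13513132 to 13534251 (dm6). boly (5.51 ± 0.74, adjusted p = 1.9e-05) lies on the minus strand within pdm3, whose span is 2R from 8327490 to 8396280 on the plus strand, and CG33475 (4.91 ± 0.74) lies on the same strand within SLO2, which was not called (1.98 ± 0.54, adjusted p = 0.0589). Nuclear RNA holds unspliced transcripts and counting by strand is not stated, so reads of these genes and of their hosts cannot be told apart. CG3823, at 12.8 to 124 TPM in PAM against a median of 0.26 TPM in non-PAM libraries (4.93 ± 0.62, adjusted p = 4.5e-06), has no such host. The remaining genes named as lowest in PAM were CG14669 (-3.23 ± 0.54) and MYPT-75D, a subunit of myosin phosphatase (-3.14 ± 0.61), whose calls held without any 1 driver, and CG6034, Mct1 and CG13954, whose calls did not (adjusted p of up to 0.114, 0.146 and 0.0653). CG6034 lies within Ccn on its opposite strand.

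**Figure D2:**
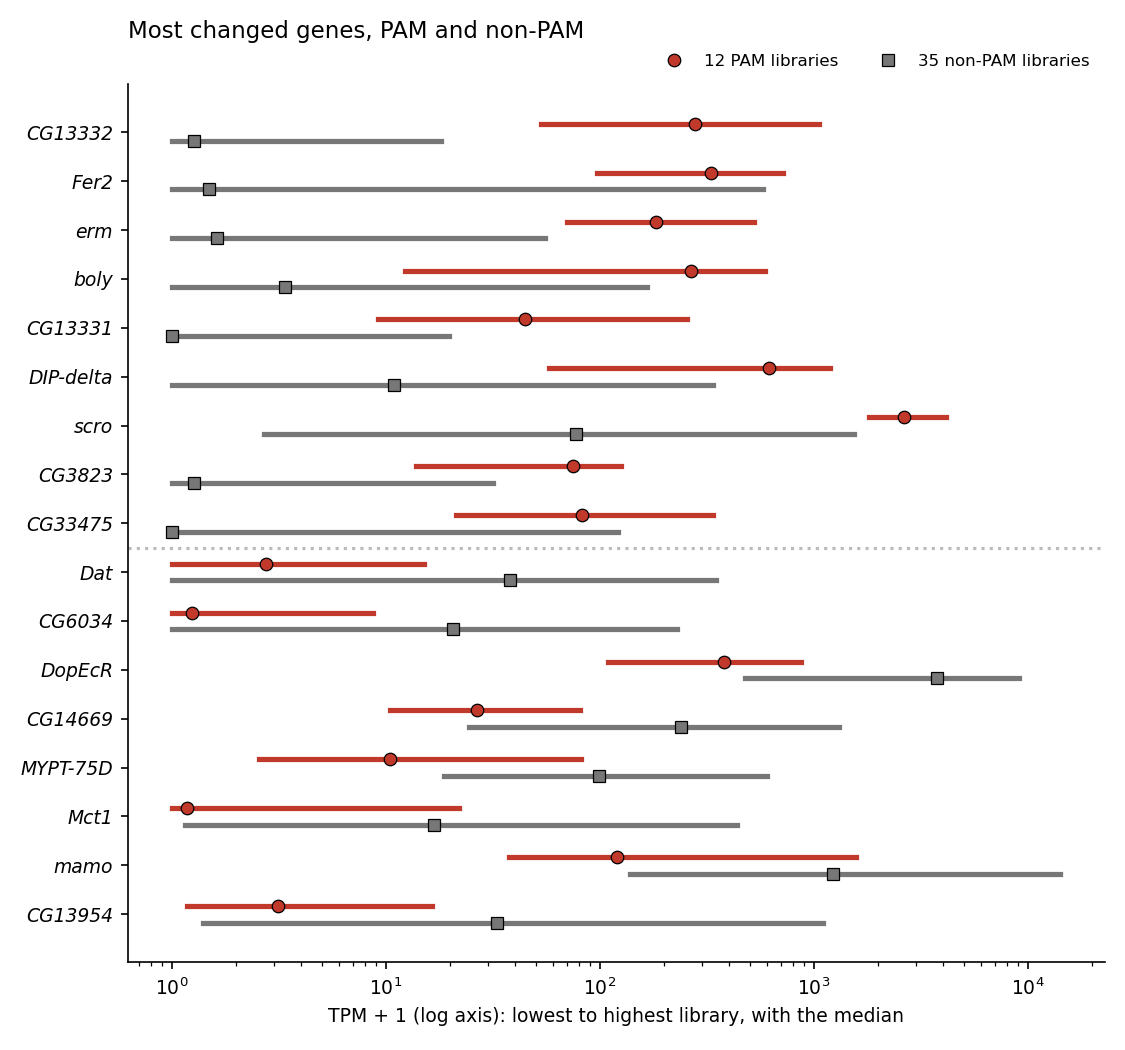
The genes with the largest log2 fold changes between PAM and non-PAM drivers other than Vmat, DAT and ple, those higher in PAM above the dotted line and those lower below it. Bars run from the lowest to the highest library on a log axis of TPM + 1, circles (12 PAM libraries) and squares (35 non-PAM libraries) mark medians. scro, erm and CG13332 do not overlap between the groups, whereas each gene lower in PAM does.

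The PAM lines that passed quality control were not used in this fit. Of the 114 genes higher in the sub-optimal PAM lines, 83 (72.8%) had all 6 libraries of PAM_1, PAM_3 and PAM_4 above the non-PAM median, against 2731 of all 10269 genes tested (26.6%). Of the 19 lower genes 8 (42.1%) had all 6 below it, against 155 of all genes tested (1.51%). The same non-PAM libraries entered the choice of these genes, so the counts are a description and no independent check. The level of DopEcR varied between these lines, with 1573 and 1929 TPM in PAM_1, 432 and 331 TPM in PAM_3 and 189 and 107 TPM in PAM_4.

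The further comparisons asked how the 6 lines differ among themselves. Each line was set against the mean of the 5 others over 7263 genes, in a fit with 1 shared estimate of the spread between replicates. For each line, genes whose libraries lay apart from all others were counted only among called genes, as a share of all genes tested. How many genes that were not called lay apart was not counted, so these shares have no background beside them. All 6 comparisons share the same 12 libraries, so a gene high in 1 line is pulled lower in the contrasts of the others, and the p-values measure the spread between libraries. The study's methods speak of biological replicates, while the labels do not say for these libraries whether they came from separate collections of flies. Over these genes Pearson r was 0.758 to 0.813 between the replicates of a line and averaged 0.699 to 0.780 between lines. PAM_2 and PAM_6, which share γ3, γ4 and γ5, were the closest pair of lines at 0.780, and PAM_6 and PAM_9 the least similar at 0.699. The other pairs that share a target were at 0.738 to 0.766, and PAM_5 and PAM_7, which share none, at 0.760. PAM_2 and PAM_6 also had the highest tag levels (8694 to 12880 TPM, against at most 7721 TPM in the other lines). Their spike-in shares were the highest too (2.37 to 4.17%, against at most 2.2%), and the part of these measures was not tested. The genes were called in numbers from 46 to 221 a line, and in each line leaving out 1 of its own libraries lowered the count by more than 1.5 times. Of 253 calls named for single lines 60 were kept when the spread was estimated from all 47 sub-optimal libraries, and 42 of these were also kept without any 1 library. No named call changed sign in a fit without a library. Some genes called higher had no library of the other lines at 10 TPM. They numbered 1 in PAM_2, 10 in PAM_6, 6 in PAM_8, 7 in PAM_9 and 0 in PAM_5 and PAM_7. Such genes include CG1208, Spc25, CG14491, CG3603, otp, mthl8, Dh44, pdm2 and Kr. Each passed the filter of 10 TPM in 2 libraries only through the line it was called for. Without 1 of those 2 libraries it was not tested, so its call could not be lost there.

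PAM_5 (γ5) had the highest level of the transcription factor gene br and the lowest levels of pdm3 and of several recognition genes. br, the Broad-complex zinc finger gene on chromosome X from 1575132 to 1664869, had 15217 and 12084 TPM in the PAM_5 libraries, against 49.6 to 3677 TPM (median 476) in the 10 others (log2 fold change 5.37 ± 0.21, limma adjusted p = 1.7e-08). Both PAM_5 libraries were above all others, and those of PAM_2, with 3219 and 3677 TPM, came next. pdm3 was at the other end, with 15.5 and 24.3 TPM in PAM_5, against 431 to 806 TPM (median 566) in the 10 others (-4.85 ± 0.23, adjusted p = 5.2e-08). Of the lines not fitted, PAM_1 had pdm3 as low, at 20.4 and 11.6 TPM, while PAM_3 and PAM_4 had 227 to 499 TPM. spaw (0.58 and 3.13 TPM in PAM_5, against 55.8 to 446 TPM in the others) and CG18449 (1.2 and 0 TPM in PAM_5, against 13.7 to 332 TPM) were the genes with the largest negative values, at -6.39 ± 0.48 and -5.93 ± 0.86, and both lie within pdm3 on its opposite strand, so their reads and those of pdm3 cannot be told apart.

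In all, 174 of 7263 genes (2.4%) were called for PAM_5, 72 higher (0.991%) and 102 lower (1.4%), at a median of -0.15 on the log2 scale over all genes. Both PAM_5 libraries lay above all others for 44 of the higher genes (0.606%) and below them for 79 of the lower ones (1.09%). The DIP and dpr genes were called in 3 cases as higher and in 7 as lower, of 25 tested. dpr1 had 9.72 and 6.89 TPM in PAM_5, against 47.2 to 523 TPM (median 348) in the others (-4.90 ± 0.45, adjusted p = 4.3e-05), and dpr3 (-4.70 ± 0.44), dpr9 (-3.88 ± 0.27) and dpr6 (-2.66 ± 0.29) were lower as well, with none of the 4 overlapping the other lines. Of 56 other adhesion and guidance genes 2 were higher and 9 lower. Fas2, a homophilic adhesion molecule, had 41.6 and 38.4 TPM in PAM_5, against 320 to 709 TPM in the others (-3.69 ± 0.23, adjusted p = 1.2e-06), rst, an immunoglobulin protein, had 0.2 and 0.77 TPM, against 15.5 to 91.6 TPM (-5.01 ± 0.63), and the Slit receptor gene robo3 had 10 and 13.2 TPM, against 85.6 to 270 TPM (-3.57 ± 0.36). beat-VI went the other way, with 893 and 652 TPM in PAM_5, against 40.3 to 368 TPM (2.93 ± 0.34, adjusted p = 0.00026). Of these genes rst lies within kirre on the opposite strand, so reads of that pair cannot be told apart.

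Receptors and channels of PAM_5 differed too. The subunit gene nAChRalpha3 had 27.2 and 28.4 TPM in PAM_5, against 57.3 to 696 TPM (median 284) in the others (-2.97 ± 0.27, adjusted p = 4.3e-05), and was 1 of 3 lower among 11 acetylcholine receptor genes. GluClalpha, the glutamate-gated chloride channel, was higher at 4814 and 4166 TPM, against 1745 to 2648 TPM (1.11 ± 0.12, adjusted p = 0.00012). The potassium channel gene Elk had 5.07 and 4.43 TPM in PAM_5, against 9.47 to 180 TPM in the others (-3.75 ± 0.49). Vmat itself was lower, at 4945 and 6173 TPM in PAM_5, against 6932 to 11109 TPM (-0.71 ± 0.08, adjusted p = 0.00029), and so was ple, at 316 and 246 TPM against 499 to 897 TPM (-1.34 ± 0.22, adjusted p = 0.0039, lost without PAM_5 replicate 2 at 0.0811). The yolk protein gene Yp2, a marker of fat body and not of neurons, was lower too, at 201 and 292 TPM in PAM_5, against 305 to 1621 TPM (-1.62 ± 0.20), and so was the more abundant Yp1, at 2705 and 3848 TPM, against 5482 to 10679 TPM (-1.18 ± 0.16, adjusted p = 0.00085, lost without 1 library at 0.0588). Their list summed to 3101 and 4508 TPM in PAM_5, the lowest of the 6 lines, and its part in the other values was not tested. The paper names Yp1 among known sex-specific genes, and the sexes were not sorted. The part of the sex mix of the pooled flies in the values of Yp1 and Yp2 was not tested. The factors Eip93F and ab did not overlap either: Eip93F, an ecdysone-induced factor, at 1034 and 703 TPM against 44.7 to 320 TPM (2.91 ± 0.33), and ab, a zinc finger factor, at 5.06 and 15.1 TPM against 67 to 436 TPM (-3.81 ± 0.45). The count of calls was 55 without PAM_5 replicate 1 and 37 when the spread was estimated from all 47 libraries, and of the genes given values for PAM_5 so far, ple and Yp1 lost their calls without a library. With the spread of all 47 libraries br, pdm3, spaw, CG18449, dpr1, dpr9, Fas2, rst, nAChRalpha3, Yp1 and Eip93F were still called, while Vmat (adjusted p = 0.999), Yp2 (0.563), beat-VI (0.228), dpr6 (0.156), robo3 (0.119), ab (0.0953), Elk (0.0918), dpr3 (0.0903) and GluClalpha (0.0776) were not. CG16824, which lies within CG31729 on the same strand, and CG32547, also among the most raised genes by the naming rule, lost their calls without a library (adjusted p of up to 0.398 and 0.183).

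In PAM_8 (γ3) a receptor, a channel, a cadherin and a dopamine receptor had at most 36.6 TPM, against at least 71.2 TPM in each library of the other lines. Drl-2, a Ryk-family receptor for Wnt5, had 4.44 and 17.1 TPM in PAM_8, against 303 to 3141 TPM (median 608) in the 10 others (-6.20 ± 0.33, adjusted p = 2.4e-07). Ca-alpha1T, the T-type calcium channel, had 35.5 and 36.6 TPM in PAM_8, against 142 to 1343 TPM (median 887) in the others (-4.20 ± 0.19, adjusted p = 1.2e-07). CadN2, a cadherin, had 3.02 and 1.69 TPM, against 71.2 to 175 TPM (-5.14 ± 0.45, adjusted p = 2.9e-05). The dopamine receptor gene Dop1R1 followed the same course, with 33.1 and 26.1 TPM in PAM_8, against 298 to 682 TPM (median 472) in the others (-3.96 ± 0.27, adjusted p = 4.1e-06), while Dop2R, at 495 and 373 TPM, was not called. None of these 4 genes overlapped between PAM_8 and the other lines. Among the lines not fitted, Drl-2 was low in PAM_1 (29.2 and 37.4 TPM), and Ca-alpha1T was low in PAM_4 (21.9 TPM in each library).

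For PAM_8, 135 of 7263 genes (1.86%) were called, 64 higher (0.881%) and 71 lower (0.978%), at a median of 0.10. Both PAM_8 libraries lay above all others for 49 of the higher genes (0.675%) and below them for 45 of the lower ones (0.62%). Of 25 DIP and dpr genes 4 were higher (dpr6, dpr9, dpr10 and dpr18) and 2 lower, and of 56 other adhesion and guidance genes 4 were higher (Fas1, Fas2, kek3 and Sema2b) and 7 lower, of which only calls of lower genes held without any 1 library. Genes lower without overlap were dpr8, at 99.1 and 180 TPM against 432 to 1745 TPM (-2.81 ± 0.23, adjusted p = 2.4e-05), DIP-delta, at 69.8 and 56.6 TPM against 155 to 1185 TPM (-3.16 ± 0.37), Toll-6, a leucine-rich repeat receptor, at 11.4 and 8.15 TPM against 58.6 to 174 TPM (-3.24 ± 0.37), and kek2, at 15.7 and 31.4 TPM against 157 to 357 TPM (-3.22 ± 0.32). The neuropeptide receptor gene FMRFaR (-4.59 ± 0.58), the cyclic AMP sensor gene Epac (-2.57 ± 0.30) and the factor SoxN (-3.10 ± 0.32) were lower as well. Higher in PAM_8 was nAChRalpha3, at 691 and 696 TPM against 27.2 to 412 TPM (median 120) in the others (2.54 ± 0.27, adjusted p = 0.00019). The 4 genes with the largest positive values are uncharacterised. CG14491 (35.3 and 126 TPM, against 0 to 5.67 TPM) lies within Elk and CG3603 (82.3 and 47.4 TPM, against 0 to 5.12 TPM) within kirre. Their calls held in the fits without a library that tested them. Those of CG13722 and of CG6628, which lies within dpr10, were lost without either PAM_8 library. The receptor genes GluRIB (187 and 200 TPM in PAM_8, against 2.73 to 16.1 TPM in the others) and Dh31-R (356 and 224 TPM, against 1.44 to 57 TPM) were called higher without overlap, at 4.29 ± 0.69 and 4.90 ± 0.92, but not without 1 of the PAM_8 libraries (adjusted p of up to 0.21 and 0.296). The count of calls was 29 without PAM_8 replicate 2, 41 without replicate 1 and 30 with the spread of all 47 libraries, with which DIP-delta (adjusted p = 0.673), Epac (0.388), SoxN (0.388), kek2 (0.123) and FMRFaR (0.0914) were not called.

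For PAM_9 (β1), 221 of 7263 genes (3.04%) were called, with 105 higher (1.45%) and 116 lower (1.6%), at a median of -0.37. Both PAM_9 libraries lay above all others for 61 of the higher genes (0.84%) and below them for 64 of the lower ones (0.881%). The genes with the largest positive values encode a factor, receptors and peptides that were at or near 0 TPM in the other lines. otp, a homeobox gene, had 96.3 and 71.4 TPM in PAM_9, against 0 to 7.34 TPM (median 0) in the others (5.99 ± 0.95, adjusted p = 0.004), and mthl8, a receptor of the methuselah family, had 39.2 and 87.5 TPM, against 0 TPM in all others but 1 PAM_8 library at 0.24 TPM (5.87 ± 0.86, adjusted p = 0.0024). Neither was seen in PAM_1, PAM_3 or PAM_4, where otp reached 0.18 TPM and mthl8 was listed at 0. Dh44, the diuretic hormone 44 precursor, had 68.4 and 238 TPM in PAM_9, against 0.42 to 7.86 TPM (5.28 ± 1.03, adjusted p = 0.014), and stood at 27.6 and 39.5 TPM in PAM_3, which shares β1. At the other end, dmrt99B, a factor of the doublesex and mab-3 family, had 0.86 and 0.42 TPM in PAM_9, against 53.7 to 213 TPM (median 165) in the others (-6.40 ± 0.49, adjusted p = 1.9e-05), and was just as low in PAM_3, at 1.44 and 0.41 TPM, against 44.8 to 204 TPM in PAM_1 and PAM_4.

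Of 58 listed transcription factors 8 were higher and 2 lower in PAM_9. mamo had 890 and 1569 TPM, against 36.5 to 509 TPM (median 82.5) in the others (3.33 ± 0.32, adjusted p = 7.6e-05), and chinmo, a BTB zinc finger factor of temporal identity, had 2578 and 2618 TPM, against 553 to 1924 TPM (1.49 ± 0.15, adjusted p = 9.4e-05). pdm2 (62.1 and 63 TPM, against 0 to 3.74 TPM) and Kr (44.1 and 14.6 TPM, against 0 to 0.71 TPM), known as temporal factors of embryonic neuroblasts, were higher too, at 4.86 ± 0.97 and 4.63 ± 0.87. Kr lies within CG9380 on its opposite strand, so reads of that pair cannot be told apart. Of 11 serotonin, octopamine and tyramine receptor genes 2 were higher and 4 lower. The serotonin receptor gene 5-HT7 had 4.53 and 2.22 TPM in PAM_9, against 8.45 to 377 TPM (-5.06 ± 0.44, adjusted p = 5.7e-05), and 5-HT2A had 21.4 and 9.35 TPM, against 40.2 to 225 TPM (-3.07 ± 0.40). Of 11 acetylcholine receptor genes 5 were called, all higher, of which nAChRalpha5, at 3529 and 4163 TPM against 789 to 2746 TPM (1.29 ± 0.17), held without any 1 library. dpr11 was lower, at 281 and 234 TPM against 465 to 1152 TPM (-1.70 ± 0.16, adjusted p = 7.6e-05). CG5791, another gene named for its size of change, lost its call without either PAM_9 library (adjusted p of up to 0.13), and the count was 58 without PAM_9 replicate 2, 254 without replicate 1, of which 57 were higher and 197 lower, and 34 with the spread of all 47 libraries, with which 5-HT2A (adjusted p = 0.308), dpr11 (0.27), nAChRalpha5 (0.195), Kr (0.193) and chinmo (0.0891) were not called.

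PAM_3, whose neurons include those of β1, was not used in the fit. Of the 105 genes higher in PAM_9, 62 (59%) had both PAM_3 libraries above the 4 of PAM_1 and PAM_4, against 750 of all 7263 genes tested (10.3%), and 4 (3.81%) had them below. Of the 116 genes lower in PAM_9, 29 (25%) had both PAM_3 libraries below the 4 others, against 588 of all genes (8.1%), and 14 (12.1%) had them above. mamo was not among the 62, at 427 and 467 TPM in PAM_3 against 787 and 1328 TPM in PAM_4. The glial genes summed to as much as 5149 TPM among the 6 libraries of PAM_1, PAM_3 and PAM_4, and their part in these counts was not tested. The counts were made for PAM_9 alone, so whether they are particular to the shared β1 target was not tested. Over all genes tested between lines, the mean Pearson r of PAM_3 was 0.774 with PAM_9. It was 0.789 with PAM_5, 0.784 with PAM_7, 0.778 with PAM_2, 0.771 with PAM_8 and 0.768 with PAM_6.

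In PAM_7 (α1) receptor and adhesion genes were called in both directions. Of 11 acetylcholine receptor genes 3 were higher (nAChRalpha1, nAChRalpha6 and nAChRalpha7) and 1 lower, of 11 serotonin, octopamine and tyramine receptor genes 3 were lower, of 26 neuropeptide receptor genes 1 was higher (FMRFaR) and 2 lower, and of 56 other adhesion and guidance genes 3 were higher (Ten-a, CadN and Toll-6) and 4 lower. The calls that held without any 1 library were all lower in these lists. For PAM_7, 183 genes (2.52%) were called, 66 higher (0.909%) and 117 lower (1.61%), at a median of -0.33. Both PAM_7 libraries lay above all others for 31 of the higher genes (0.427%) and below them for 64 of the lower ones (0.881%). Oamb, an octopamine receptor, had 9.07 and 1.02 TPM in PAM_7, against 4.87 to 402 TPM (median 279) in the others (-4.94 ± 0.53, adjusted p = 0.00027). The overlap came from PAM_9, with 9.49 and 4.87 TPM, where Oamb was likewise called lower (-3.98 ± 0.53). fru had 139 and 105 TPM in PAM_7, below the 262 to 2516 TPM of all others (-3.05 ± 0.18, adjusted p = 5.45e-07), and klg, an immunoglobulin adhesion gene known for its part in memory, had 158 and 135 TPM, against 188 to 1611 TPM (-2.34 ± 0.21, adjusted p = 5.7e-05). The potassium channel gene Shab was lower too, at 981 and 1070 TPM in PAM_7, against 1261 to 3642 TPM (-1.36 ± 0.11, adjusted p = 1.7e-05). GABA-B-R3, a metabotropic GABA receptor, had 16.8 and 66.2 TPM in PAM_7, against 97.9 to 656 TPM (-3.23 ± 0.41, adjusted p = 0.001), and HP1e, a heterochromatin protein, was listed at 0 in both PAM_7 libraries, against 6.28 to 274 TPM in the others. HP1e lies within CG8861 on its opposite strand.

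Among the genes higher in PAM_7, Ca-alpha1T and Cht6 were also high in PAM_9. Ca-alpha1T had 1341 and 1293 TPM in PAM_7 and 1343 and 1334 TPM in PAM_9, above the 35.5 to 891 TPM of the remaining lines (1.99 ± 0.19 in the PAM_7 comparison, adjusted p = 0.0001). Cht6, a chitinase gene, had 815 and 681 TPM, against 1.78 to 318 TPM (4.82 ± 0.68, adjusted p = 0.0025, and 0.077 without PAM_7 replicate 1), with PAM_9 next at 200 and 318 TPM. ru, a rhomboid-family protease gene, had 88.5 and 85.5 TPM, against 0 to 36.8 TPM, and CG13606 had 83.6 and 138 TPM, against 0 to 22.9 TPM, but both calls needed both PAM_7 libraries (adjusted p of up to 0.242 and 0.189), and ru lies within Ptp61F on the opposite strand, so their reads cannot be told apart. pre-mod(mdg4)-K, with 63.1 and 64.5 TPM in PAM_7, is annotated as 1 of many variants of mod(mdg4) that share sequence, so its level is uncertain, and CG3760, which shares exon sequence with CG2811 and had 0 and 2.04 TPM against 3.01 to 291 TPM, lost its call when either PAM_7 library was left out (adjusted p of up to 0.351). The count of calls was 38 without PAM_7 replicate 1, 102 without replicate 2, 117 without PAM_6 replicate 1 and 23 with the spread of all 47 libraries, with which HP1e (adjusted p = 0.101) and GABA-B-R3 (0.0836) were not called.

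In PAM_2 and PAM_6, the 2 lines with the broadest targets, 3 of 19 and 3 of 44 named calls held without any 1 library. For PAM_2 46 genes (0.633%) were called, 27 higher (0.372%) and 19 lower (0.262%), at a median of 0.29. Both PAM_2 libraries lay above all others for 8 of the higher genes (0.11%) and below them for 5 of the lower ones (0.0688%). dati, a zinc finger factor on chromosome 4, had 3806 and 3597 TPM in PAM_2, above the 143 to 3013 TPM of the others (2.10 ± 0.14, adjusted p = 1.1e-05), and fru, at 1958 and 2355 TPM (1.92 ± 0.18), and br, at 3219 and 3677 TPM (2.99 ± 0.21), were higher than the mean of the other lines though not than each of them. CG1208 was the gene with the largest value, at 21.2 and 20.1 TPM in PAM_2, against at most 0.74 TPM in the others (4.31 ± 0.83, adjusted p = 0.035). Its call was lost in each of the 10 fits without a library that tested it, of 12 in all. mam, a Notch coactivator, at 368 and 337 TPM against 49.3 to 286 TPM, CG3104, at 862 and 965 TPM against 70.5 to 779 TPM, and the lower genes CG13887, at 29.5 and 27.6 TPM against 48.8 to 188 TPM, and CG32683, at 38.8 and 56.3 TPM against 74 to 441 TPM, did not overlap with the other lines, but none of their calls held without either PAM_2 library (adjusted p of up to 0.348, 0.203, 0.375 and 0.473). The count was 4 without PAM_2 replicate 1, 16 without replicate 2, 24 and 22 without PAM_6 replicate 1 or 2, 29 and 27 without PAM_8 replicate 1 or 2, and 5 with the spread of all 47 libraries, with which br and fru but not dati (adjusted p = 0.619) were called.

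For PAM_6 160 genes (2.2%) were called, 88 higher (1.21%) and 72 lower (0.991%). Both PAM_6 libraries lay above all others for 52 of the higher genes (0.716%) and below them for 43 of the lower ones (0.592%). The median of all genes was 0.48 here, the largest of the 6 comparisons, and the PAM_6 libraries had 8939 and 8438 genes above 0 TPM. AstC, the allatostatin C precursor, had 957 and 1084 TPM in PAM_6, against 0 to 60.3 TPM (median 13.9) in the others (6.81 ± 1.04, adjusted p = 0.0055), and at most 50.1 TPM in PAM_1, PAM_3 and PAM_4. Both PAM_6 libraries were far above all others, but with 1 of them left out the call was lost (adjusted p of up to 0.174). Spc25, a kinetochore gene, had 42.8 and 79.5 TPM in PAM_6, against 0 to 6.79 TPM (5.37 ± 1.04, adjusted p = 0.021). It kept its call in the fits without a library that tested it, with 0.072 as the adjusted p at a pseudocount of 0.1 TPM. It lies within grsm on the opposite strand, so reads of the pair cannot be told apart. The same holds for CG42393, given below, which lies within Eip75B on the opposite strand. pros was lower, at 4111 and 4713 TPM in PAM_6, against 5282 to 10153 TPM (-0.89 ± 0.09, adjusted p = 0.00052), and fru higher at 1967 and 2117 TPM (1.83 ± 0.18). mRpL1, a mitochondrial ribosomal protein gene that shares exon sequence with nac on the opposite strand (48.8 and 409 TPM), and CG7824 (132 and 79.3 TPM) were above all others, and CG43740 (29.1 and 16.5 TPM, against 33.8 to 506 TPM) and CG42393 (11 and 10.6 TPM, against 25.1 to 187 TPM) below, with calls that were lost without 1 of the PAM_6 libraries (adjusted p of up to 0.402, 0.405, 0.161 and 0.332). The count was 12 without PAM_6 replicate 1, 10 without replicate 2, 85 without PAM_2 replicate 2, 97 without PAM_5 replicate 1, 100 and 81 without PAM_8 replicate 1 or 2, and 21 with the spread of all 47 libraries, with which pros was not called (adjusted p = 0.126).

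**Figure D3:**
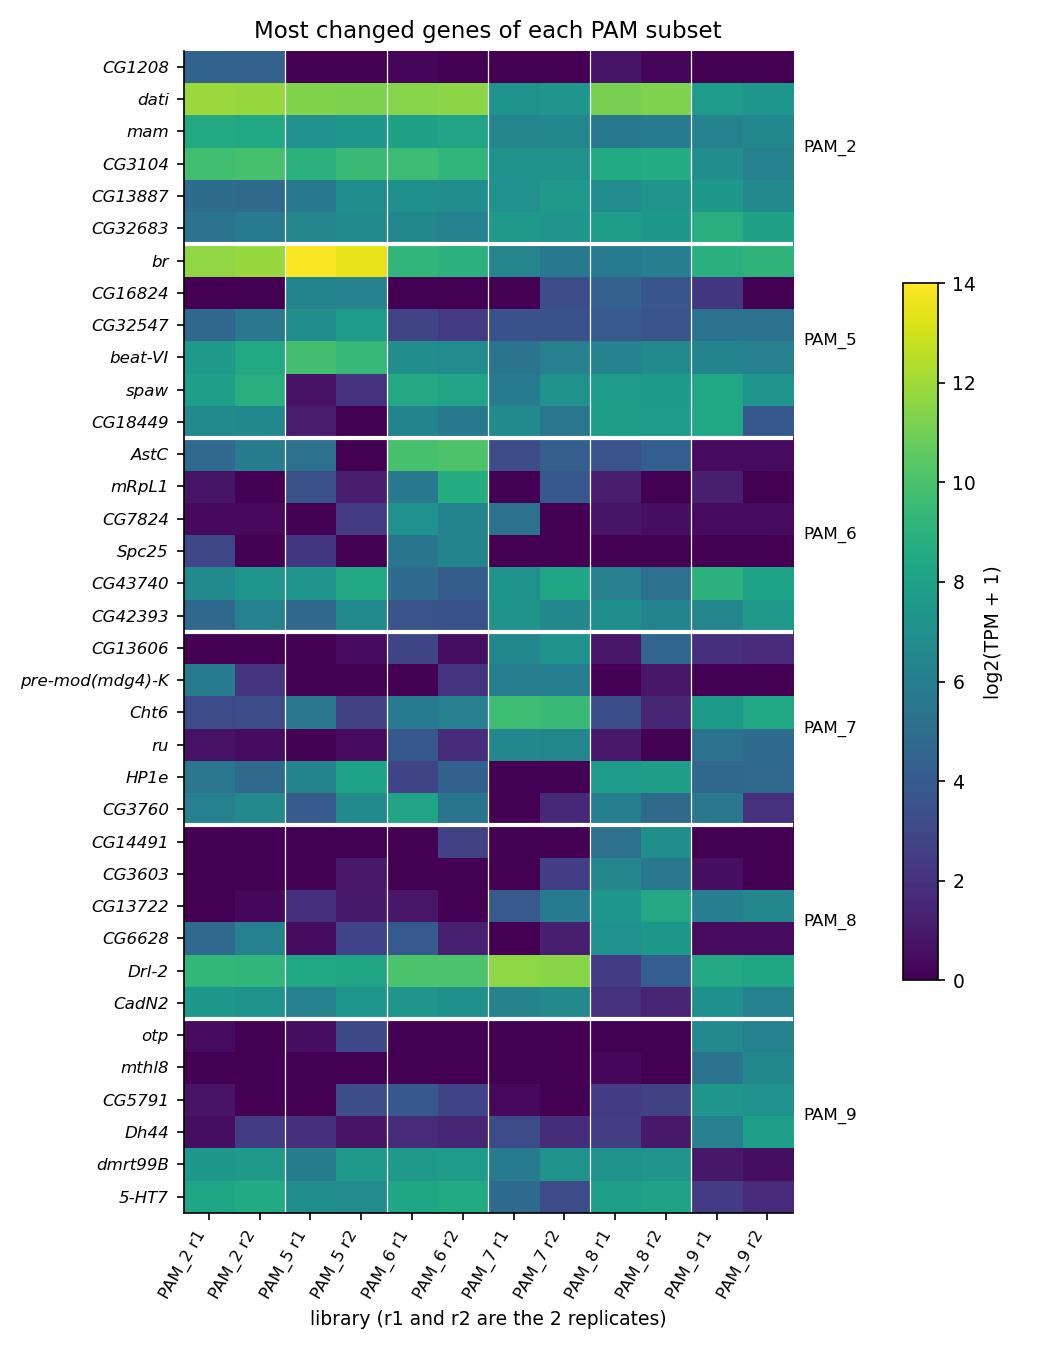
The 4 most raised and 2 most lowered genes of each PAM line among those whose libraries did not overlap with the other lines, as log2(TPM + 1) by colour from 0 to 14, with the 12 libraries in columns and the line each gene was named for at the right. br in PAM_5 (15217 and 12084 TPM) is the brightest entry, and Drl-2 in PAM_8 and dmrt99B in PAM_9 are dark where the other lines are bright.

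The dopamine genes varied between lines as well. Vmat ranged over 4945 to 11109 TPM, DAT over 1206 to 3568 TPM, ple over 246 to 897 TPM and Ddc over 89.6 to 949 TPM, and Vmat and ple were lowest in PAM_5. DAT was highest in PAM_2 (3568 and 2582 TPM) and PAM_6 (3507 and 2976 TPM), against 1206 to 1865 TPM in the remaining lines, with log2 fold changes of 0.85 ± 0.17 (adjusted p = 0.042) and 0.95 ± 0.17 (adjusted p = 0.013) that were lost without either library of the line (adjusted p of up to 0.627 and 0.314). Vmat was called higher in both lines by 0.48 ± 0.08 and 0.39 ± 0.08, close to the median of all genes in those comparisons, and also lost these calls (adjusted p of up to 0.342 and 0.384). Ddc was lowest in PAM_7, at 89.6 and 229 TPM against 186 to 949 TPM in the others (-1.77 ± 0.31, adjusted p = 0.0078, and 0.223 without PAM_7 replicate 1). None of 36 glial, muscle and photoreceptor genes tested was called by limma in a comparison between lines, with at most 7 at an unadjusted p below 0.05, all lower, in PAM_5. Of the Kenyon cell list, rn was higher in PAM_7 (2.75 ± 0.48) and PAM_9 (3.39 ± 0.48) and lower in PAM_5 (-2.25 ± 0.48) and PAM_8 (-3.08 ± 0.48), and Pka-C1, a protein kinase A subunit, was higher in PAM_9 (0.53 ± 0.11). Pdh, of the pigment cell list, was lower in PAM_9 (-4.83 ± 0.80). Of these calls only that of rn in PAM_9 held without any 1 library. Of the fat body list, Yp2 was higher in PAM_2 (1.43 ± 0.20) and PAM_6 (1.48 ± 0.20) and lower in PAM_7 (-0.99 ± 0.20) as well as in PAM_5, and its part in the values of these lines was not tested. The part of the sex mix of the pooled flies was not tested either.

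Set side by side, the libraries fell into groups of lines for several genes. These groupings were made after the values were seen and were not tested. fru, which encodes BTB zinc finger factors known for male courtship, had 1958 to 2516 TPM in the 6 libraries of PAM_2, PAM_6 and PAM_8, the lines that include γ3, against 105 to 387 TPM in PAM_5, PAM_7 and PAM_9. dan, a nuclear protein gene of eye and antenna development, had 21.3 to 95.3 TPM in PAM_2, PAM_6 and PAM_8, against 0 to 1.75 TPM in the other lines, and dpr18 stood at 296 to 629 TPM in these 3 lines, against 5.86 to 51.8 TPM. PAM_4, with targets in γ4, had fru at 676 and 519 TPM, and PAM_1 and PAM_3 had 160 to 359 TPM.

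For the genes below, PAM_7 (α1) and PAM_9 (β1) were set off from the 4 lines with targets in the γ lobe. Over all genes tested between lines, the mean Pearson r did not show this split for PAM_5. It was 0.760 between PAM_7 and PAM_5 and 0.753 between PAM_7 and PAM_9. PAM_5 was at 0.766 with PAM_2, 0.749 with PAM_8 and 0.746 with PAM_6. PAM_7 was at 0.716 to 0.734 with PAM_2, PAM_6 and PAM_8. PAM_9 was at 0.699 to 0.736 with the 4 lines. dati had 143 to 207 TPM in PAM_7 and PAM_9, against 2255 to 3806 TPM in the other 4 lines. klg had 135 to 277 TPM, against 532 to 1611 TPM, Shab 981 to 1316 TPM, against 2351 to 3642 TPM, and Oamb 1.02 to 9.49 TPM, against 142 to 402 TPM. The serotonin receptor gene 5-HT7 and the octopamine receptor gene Octbeta1R were low in the same lines, at 2.22 to 28.3 TPM against 107 to 377 TPM, and at 4.2 to 32.9 TPM against 83.7 to 352 TPM. The opposite course was taken by Ca-alpha1T, by rn, a zinc finger factor gene that is also on the Kenyon cell list (255 to 439 TPM, against 7.47 to 114.6 TPM), by the teneurin gene Ten-a (454 to 941 TPM, against 101 to 198 TPM), by the cadherin gene CadN (477 to 757 TPM, against 184 to 251 TPM) and by mamo (382 to 1569 TPM, against 36.5 to 223 TPM). In PAM_3, which covers β1 and β2, Oamb (7.16 and 16.4 TPM), 5-HT7 (15.9 and 1.97 TPM), Ca-alpha1T (1319 and 1411 TPM) and rn (477 and 560 TPM) lay with PAM_7 and PAM_9, while dati (879 and 1063 TPM) lay between. The mamo values of PAM_3, given above, lay within the range of PAM_7 and PAM_9. Those of PAM_4, which has targets in γ4, did so too, so mamo did not keep to this split. Ca-alpha1T was low in PAM_4. Values of klg, Shab, Octbeta1R, Ten-a and CadN in PAM_3 and PAM_4 are not given here.

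The levels of br ordered the lines. The library values ran over 15217 and 12084 TPM in PAM_5, 3219 and 3677 TPM in PAM_2, 600 and 493 TPM in PAM_6, 458 and 559 TPM in PAM_9, 83.2 and 49.6 TPM in PAM_7 and 56.6 and 65.2 TPM in PAM_8. PAM_6 and PAM_9 overlapped, as did PAM_7 and PAM_8, and the other steps in the order exceeded the spread of the replicates. PAM_3 (7451 and 7693 TPM) and PAM_1 (2881 and 3646 TPM) were on the high side as well, and PAM_4 had 198 and 201 TPM.

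**Figure D4:**
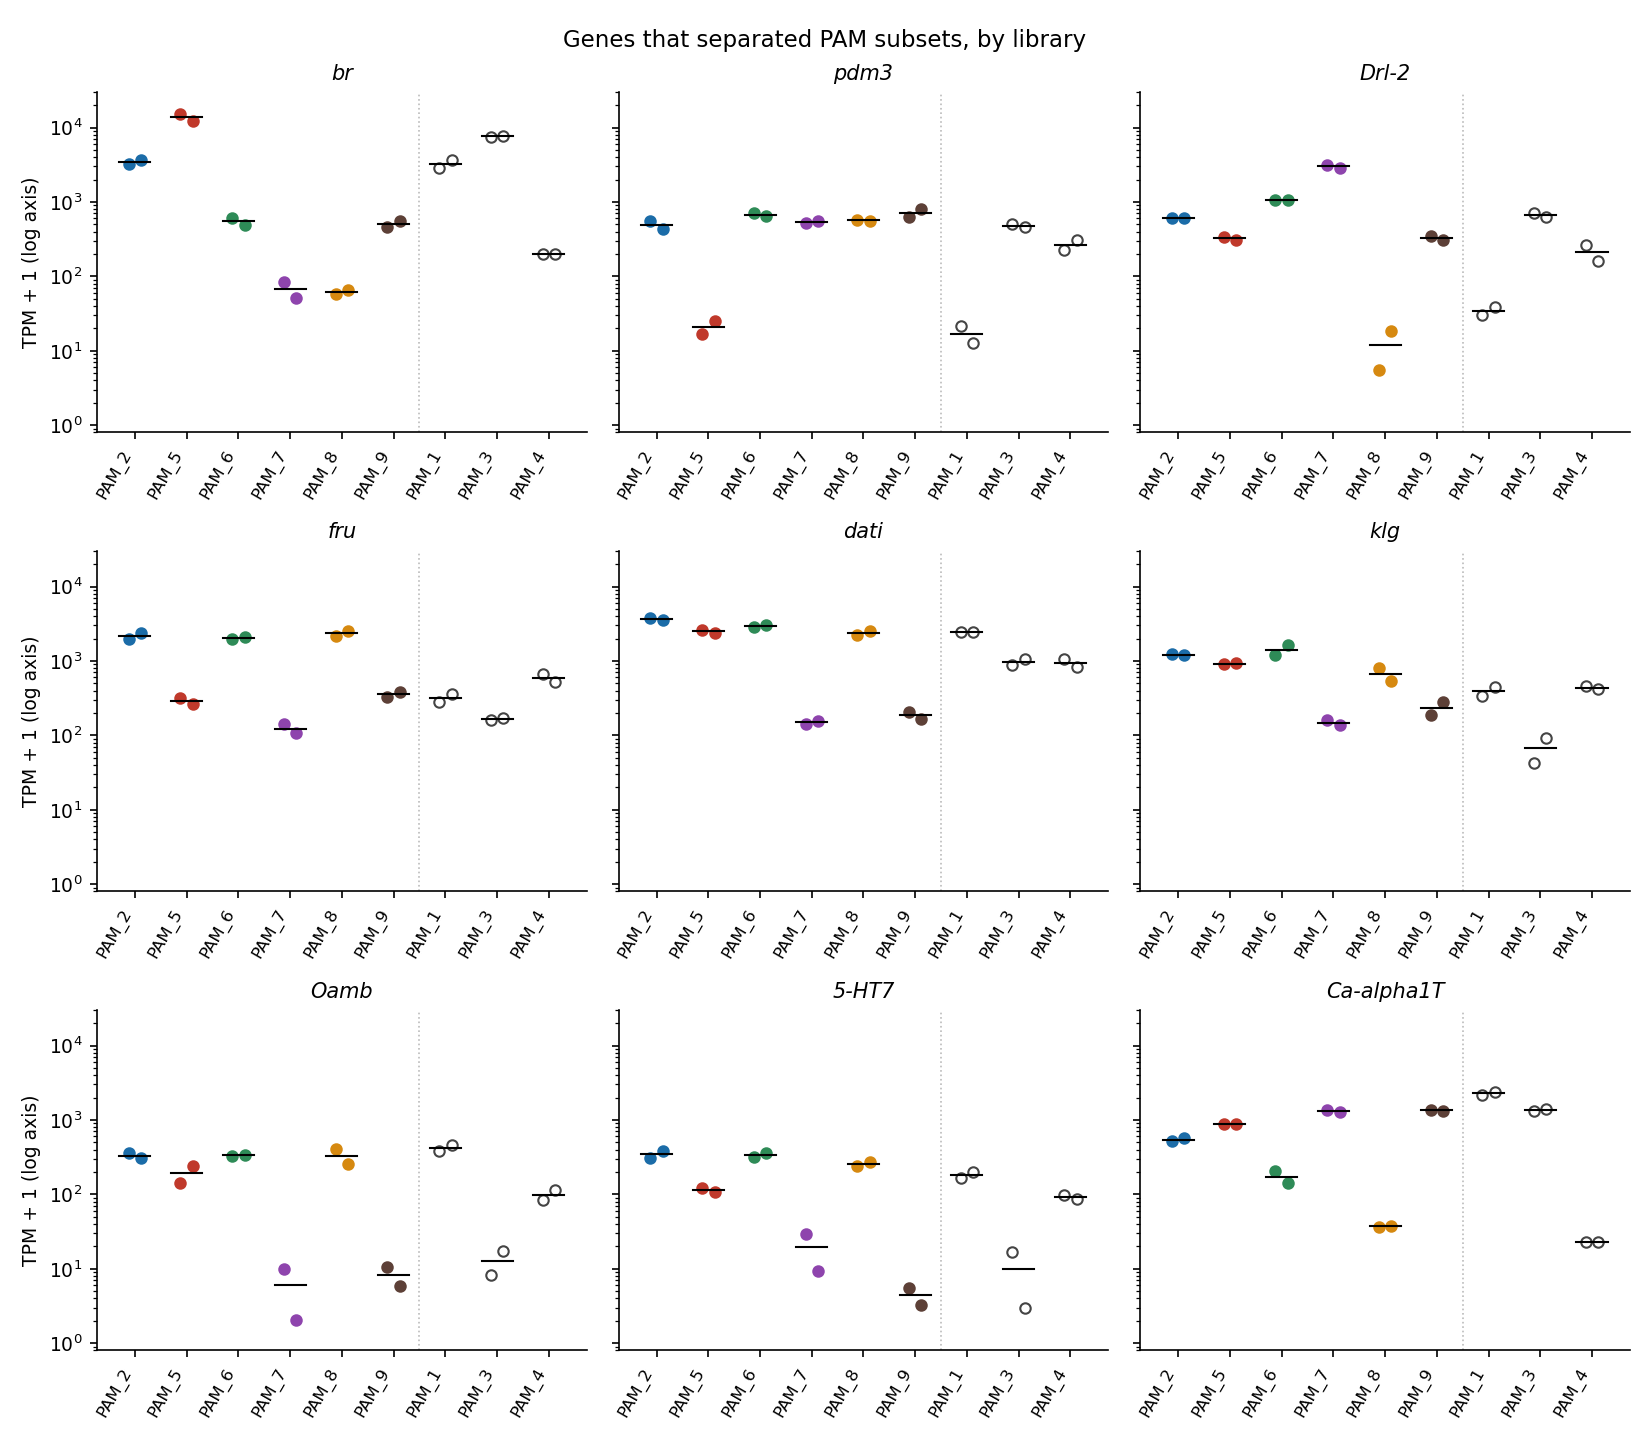
Abundance of 9 genes by line as TPM + 1 on a log axis: filled points are the 2 libraries of each sub-optimal line, open points those of PAM_1, PAM_3 and PAM_4, and short lines are means. br spans 49.6 to 15217 TPM, pdm3 is low in PAM_5 and PAM_1, Drl-2 and Ca-alpha1T in PAM_8, fru is high in PAM_2, PAM_6 and PAM_8, and dati, klg, Oamb and 5-HT7 are low in PAM_7 and PAM_9.

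Tests on simulated data with known changes showed what these fits could call. With 200 changed genes among 10269 or 7263, limma recovered 39% of genes changed by 2 and 97% of those changed by 4 on the log2 scale in the comparison of PAM with non-PAM, and 17 to 22% and 53 to 59% in the comparisons of single lines. A gene not called for a line may therefore still differ.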

How the data were processed

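Nuclear RNA of TAPIN libraries was amplified (NuGEN Ovation v2) and sequenced by the authors, who pseudo-aligned reads with kallisto 0.43.1 to fly transcripts of the dm6 build and deposited TPM per gene. The coding gene table used here had been rescaled by the authors after removal of spike-ins, constructs, rRNA and non-coding genes, while the tag and spike-in shares came from the deposited TPM of all sequences. The levels of genes in the on state are means of the authors' mixture model, deposited as the natural log of TPM and converted back, and the model's probabilities of expression were not used, nor were tables of transcripts or pooled cell types. Since the values are TPM, tests used limma 3.58.1 in R 4.3.3 on log2(TPM + 1), with a trended prior, two-sided and with Benjamini-Hochberg adjustment over all genes of a comparison at 0.05, for genes that reached 10 TPM in 2 or more libraries of the fit. A log2 fold change on this scale understates that of low genes. PAM was set against non-PAM on driver means (17 non-PAM drivers with 2 libraries, Dm12 with 1), and each line against the 5 others in a means model of the 12 libraries. Figures and tables used Python 3.11.15, and gene positions came from a later Ensembl annotation in dm6 coordinates, by gene ID (162 of 165 named genes). Of the named genes 22 lie within the span of another gene and 36 have an exon that overlaps another gene, and not all of these are marked above. Genes were named by rule: Vmat, ple, DAT and Ddc, the 12 most raised and 8 most lowered calls of PAM, the 4 most raised and 2 most lowered non-overlapping calls of each line, and called members of 24 gene lists. The members and lists were chosen with earlier results of these data known. Alternatives were other pseudocounts, filters, normalisation, blocks, fits and leaving out each library or driver.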

Additional observations from a re-analysis of the deposited data

Results flagged for a closer look

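Among 21 genes of the comparison of PAM with non-PAM and 4 library measures, 3 genes had 1 PAM line far from the other 5, with a gap to the nearest line that exceeded Dixon's critical share of the range over the 6 line means. For normally distributed values chance gives such a gap in about 1 in 20 groups. The means here were of TPM without a log scale, for which this rate need not hold, and all 3 gaps were on the high side. MYPT-75D, a myosin phosphatase subunit, averaged 61.4 TPM in PAM_9, against 22.4 TPM in the next line, with a gap of 0.671 of the range. Mct1, a monocarboxylate transporter, averaged 11.4 TPM in PAM_6, against 2.71 TPM in the next line (0.763). mamo averaged 1229 TPM in PAM_9, against 446 TPM in PAM_7 (0.663). All 3 were called lower in PAM than in non-PAM drivers, so the line that stood apart was the one nearest to the non-PAM values.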

How the results depend on the processing

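No named call reversed its direction in any alternative. Of 289 named calls 95 held in every fit without a library or driver. For PAM against non-PAM (133 genes), fits to single libraries called 269 genes with driver as a random block, 253 with the replicate block added to it and 488 when libraries were taken as independent, and leaving out a driver gave 79 to 158 and a library 114 to 145. For single lines, the fit to all 47 libraries called 5 genes for PAM_2, 37 for PAM_5, 21 for PAM_6, 23 for PAM_7, 30 for PAM_8 and 34 for PAM_9; the cause was not tested. Adjustment over all 6 comparisons gave 74 for PAM_2, and PAM_6 had 92 without the filter on low values and 104 with the replicate block. Without 1 library the counts ran over 4 to 58 for PAM_2, 55 to 191 for PAM_5, 10 to 201 for PAM_6, 38 to 238 for PAM_7, 29 to 142 for PAM_8 and 58 to 254 for PAM_9, where the line left with 1 library was assumed to vary like the others. The share of higher genes moved by over 10 percentage points in each line when 1 of its own libraries was left out (either one, except for PAM_9, where replicate 2 gave 37.9%), for example to 20% for PAM_6 without replicate 2 and 22.4% for PAM_9 without replicate 1, against 55% and 47.5% with all libraries. PAM_6 had more calls than PAM_9 with quantile normalisation (225 against 209) and a pseudocount of 10 TPM (224 against 217), and PAM_5 had more in the fit to all 47 libraries (37 against 34). Replicate numbers did not pair the libraries: over 15 pairs of lines the deviations of same-numbered libraries correlated at -0.0555 to 0.0736. With the replicate block the other lines had 34 (PAM_2), 155 (PAM_5), 159 (PAM_7), 121 (PAM_8) and 201 (PAM_9) calls. The difference in tag level between PAM and non-PAM driver means (3880 TPM) was 3838 TPM without the head muscle and R7_Rh3 drivers (exact permutation test, adjusted p = 0.0662) and 2899 to 4482 TPM without a PAM driver. Other counts stayed within 1.5 times. Depth could not be assessed without counts, and genes listed at 0 may be present.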
